A study of Homo sapiens with 36 samples.

Results

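Gene expression of the HIF1a clone HIF12 was compared with that of LNCaP/Empty under vehicle, on all probes of 10 of the 36 Illumina BeadArrays of the study (5 arrays per line). LNCaP is a prostate cancer cell line that depends on androgen. HIF12 is 1 clone of LNCaP with a stable retroviral HIF1a transgene with 2 prolines changed to alanine, which prevents the oxygen-dependent degradation of the protein, and LNCaP/Empty carries the vector without the transgene. Both lines had been kept for 96 h in charcoal stripped serum, which is depleted of androgen, and were then given 0.01% ethanol as vehicle for 4 h. The comparison asks how the clone differed from its control line when androgen was withheld. Its differences were set beside those with 1 nM R1881, a synthetic androgen, for 4 h after the same serum (5 arrays per line), and beside those of HIF12 (5 arrays) and of another HIF1a clone, HIF49 (5 arrays), against LNCaP/Empty (6 arrays) under a condition labelled Normal, which the labels do not define. The arrays were taken by the labelled treatment and clone. Vehicle was measured in a single HIF1a clone, so that the transgene and other differences of the clone cannot be told apart, and no label says whether replicate arrays were separate cultures, so that the p-values measure only the spread between these arrays.

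HIF1a is the regulated subunit of a transcription factor that, together with its partner ARNT, binds the core letters RCGTG in hypoxia-response elements and switches on genes of glycolysis, pH balance, angiogenesis and invasion. With oxygen, prolyl hydroxylases mark HIF1a for recognition by VHL and destruction, so that the protein level is set mainly after transcription. In prostate cancer cells androgen drives a separate program of secretory genes such as KLK3, and HIF1a is studied as a route to growth without androgen.

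The 10 vehicle arrays detected 15747 to 17199 probes each (detection p under 0.01), and the median scanner intensity was 111.19 to 131.44. Correlation over all probes was 0.9878 to 0.9923 within a line, and each of the 10 arrays correlated best with another array of its own line. Of 11 luminal prostate markers with a probe, 11 were detected on all HIF12 arrays and 10 on all LNCaP/Empty arrays, and the 2 basal and 2 neuroendocrine markers were detected on none. Of 13 stromal, endothelial and blood markers, 6 were detected on no array, 3 on all 10, and only the smooth muscle actin ACTA2 was higher in HIF12 (0.63 on the log2 scale), with summed levels of 1467 to 1576 in HIF12 and 1129 to 1340 in LNCaP/Empty (linear normalized signal). 1 array stood apart. On the 40 probes that rose most with R1881 in LNCaP/Empty, HIF12 vehicle replicate 4 had a mean log2 level of 7.22, against 6.37 to 6.50 on the other 4 HIF12 vehicle arrays, 6.41 to 6.81 on LNCaP/Empty vehicle and 8.44 to 8.60 on HIF12 with R1881. This score was chosen after the values were seen. The counts of androgen genes are also given without that array, and so are calls of list genes named below that were lost without it. Replicate numbers below are those of the vehicle arrays.

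HIF1A itself was measured first, since its transgene defines the line. By the probe ILMN_1763260 the log2 levels of HIF1A were 9.45, 9.95, 10.03, 10.11 and 10.02 on the HIF12 arrays and 8.29, 8.07, 8.66, 8.83 and 7.93 on LNCaP/Empty. All HIF12 arrays lay above all LNCaP/Empty arrays, and HIF1A was 2.94-fold higher (log2 difference 1.56, SE 0.30, n = 5 per line, adjusted p = 0.00118 from limma). The second probe (ILMN_1681283) gave 2.24-fold (1.17, SE 0.23, adjusted p = 0.00153), again without overlap. The third probe (ILMN_2379788) read 8.25 to 9.04 in HIF12 and 8.06 to 8.87 in LNCaP/Empty, which overlapped (0.15, 95% interval -0.32 to 0.62, adjusted p = 0.898). Where each probe lies in the transcript was not examined. With R1881 and in Normal the same 2 probes differed by 1.33 to 1.52 on the log2 scale, and in HIF49 the mean was 9.60 ± 1.21 (SD, n = 5) by the first probe, with 1 array at 7.45. That array read 7.09 by the second probe. It was below all LNCaP/Empty arrays in Normal by both probes (8.55 to 8.93 and 7.21 to 8.00). It was kept in every HIF49 value below.

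**Figure D1:**
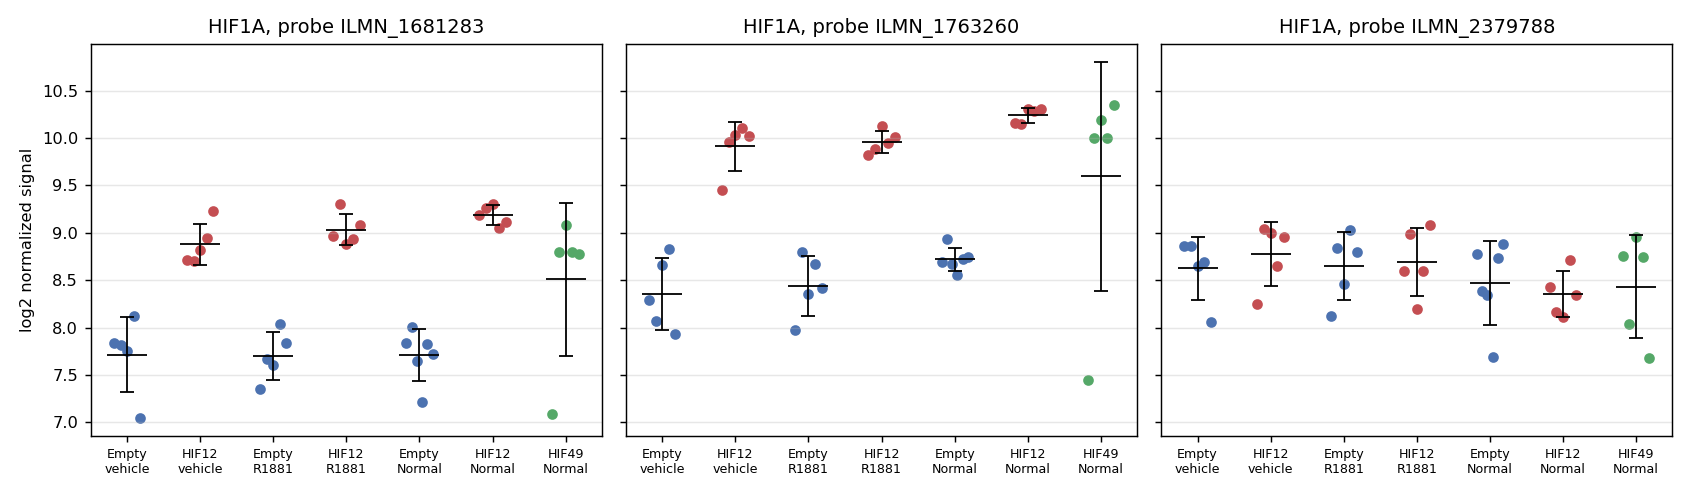
Normalized log2 level of the 3 HIF1A probes on each array of the 7 groups (points), with the mean and SD of each group. Both probes that passed were near 10 and 9 on most HIF1a-clone arrays and about 8 on LNCaP/Empty, and the third probe was between 7.68 and 9.08 in every group.

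The other genes of oxygen sensing were then read. Of 18 HIF pathway genes, of which 7 had an unadjusted p under 0.05, HIF1A rose and CITED2, a competitor of HIF1a for the coactivator p300, fell by 0.64 on the log2 scale (SE 0.08), with 16 not passed. Among all genes 0.958% were higher and 0.908% lower. ARNT, the binding partner, differed by 0.14, the prolyl hydroxylases EGLN1, EGLN2 and EGLN3 by -0.22, 0.17 and 0.45, the asparagine hydroxylase HIF1AN by 0.06 and VHL by -0.18, with adjusted p of 0.11 to 0.911 in limma. EPAS1, which encodes HIF2a, was not detected on the vehicle arrays.

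In vehicle, 192 of 20045 genes (0.958%) were higher in HIF12 and 182 (0.908%) lower, at a Benjamini-Hochberg adjusted p under 0.05 in limma and at least 1.5-fold on at least 1 probe. Without background correction, or in the deposited normalized table, 59 were higher and 72 lower. Of the 192, 160 were detected on every HIF12 array, 47 were detected on no LNCaP/Empty array, 47 were at least 2-fold higher and 164 had no overlap between the lines. Of the 182, 153 were detected on every LNCaP/Empty array, 43 on no HIF12 array, 61 were at least 2-fold lower and 162 did not overlap. A call favours genes without overlap, and the share over all genes is not given here, so these overlap counts are no separate support. Of 90 called genes with at least 2 detected probes, 79 had all such probes in 1 direction. WLS, which carries Wnt proteins to the cell surface, was called both ways, at 1.74 by the probe ILMN_1660549 and at -1.31 and -0.87 by others, and its direction is unsettled.

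Hypoxia targets outside glycolysis passed in both directions. Of 61 measured, 6 were higher, 2 lower and 53 not passed, against 0.958% and 0.908% of all genes, with a median log2 difference of -0.01 against 0.01 over all genes. At an unadjusted p under 0.05 in limma were 19 of the 61, and 3100 of the 20045 genes. CA12, a membrane carbonic anhydrase that exports acid, had levels of 7.95, 7.58, 7.60, 7.77 and 7.71 in HIF12 and 6.52, 6.41, 6.62, 6.93 and 7.17 in LNCaP/Empty. The lines did not overlap and CA12 was 1.99-fold higher (0.99, SE 0.14, adjusted p = 1.05e-05 from limma). NDRG1, a stress-response protein induced by both hypoxia and androgen, was 1.61-fold higher (10.27 to 10.48 against 9.41 to 9.90), and TMEM45A, a transmembrane protein below the detection limit throughout LNCaP/Empty, was raised at least 1.32-fold. The other 3 that passed as higher (IGFBP3, HMOX1 and KRT19) each lost the call when any 1 of 5 or 6 arrays was left out, and so did PLIN2 among the lower ones. Of these, IGFBP3, which binds insulin-like growth factors, read 10.69, 10.41, 11.05, 10.91 and 10.96 in HIF12 and 9.49, 9.22, 9.94, 9.46 and 11.11 in LNCaP/Empty. The last LNCaP/Empty array was above every HIF12 array, and without 1 of 6 arrays (LNCaP/Empty replicates 1, 2 and 4, HIF12 replicates 3, 4 and 5) the difference of 0.96 became 0.80 to 0.93 with an adjusted p of 0.0574 to 0.107. HMOX1 lost its call without LNCaP/Empty replicate 1, 2 or 5 or HIF12 replicate 1 or 5 (0.51 to 0.58), KRT19 without LNCaP/Empty replicate 2 or 5 or HIF12 replicate 1, 3 or 4 (0.51 to 0.58), and PLIN2 without LNCaP/Empty replicate 2, 3 or 5 or HIF12 replicate 3, 4 or 5 (-0.69 to -0.61). Without HIF12 replicate 4 the list held 4 higher and 1 lower. VEGFA, the angiogenic factor, did not pass (-0.14, adjusted p = 0.76), whereas VEGFB, a related ligand outside this list, was 2.14-fold higher, at 10.56 to 10.78 in HIF12 and 9.41 to 9.76 in LNCaP/Empty.

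Glycolysis differed at 2 of 32 genes, 1 higher and 1 lower (3.12% each, against 0.958% and 0.908% of all genes). PGM1, which interconverts glucose phosphates toward glycogen, fell by 0.68 on the log2 scale (SE 0.07, adjusted p = 7.68e-09 from limma), from 10.71 to 10.81 in LNCaP/Empty to 10.03 to 10.12 in HIF12. LDHB, a lactate dehydrogenase subunit, passed as 1.53-fold higher, but not without LNCaP/Empty replicate 5 (0.50) or HIF12 replicate 3 (0.57). The textbook targets of HIF1a in this pathway lay close to LNCaP/Empty, with log2 differences of -0.07 for the glucose transporter SLC2A1, 0.09 for the lactate dehydrogenase LDHA, -0.23 for PGK1 and -0.00 for ENO1. CA9 had no probe named for it and was not analysed here.

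Promoters were searched for the core of the hypoxia-response element (ACGTG or GCGTG on either strand, so that CACGT and CACGC count too) in the 300 bases around the start of each gene, from RefSeq on GRCh38.p14. It was present in 66 of 137 promoters of the higher genes (48.2%) and 80 of 145 of the lower genes (55.2%), against 56.2% of all 15032 promoters and 64.5% of those of genes detected on at least 5 vehicle arrays. A match is a description of letters and no binding site. The promoters of a hypoxia target and a Notch ligand that were higher, of a receptor that was no longer detected and of a cancer-testis gene that was among the largest increases are shown with each match in capitals. CA12 at chr15:63381797-63382096 (minus strand) had 2 matches, JAG1 at chr20:10673950-10674249 (minus strand) had 5, EPHA3 at chr3:89107371-89107670 (plus strand) had 2 and MAGEC2 at chrX:142205241-142205540 (minus strand) had 0.
CA12: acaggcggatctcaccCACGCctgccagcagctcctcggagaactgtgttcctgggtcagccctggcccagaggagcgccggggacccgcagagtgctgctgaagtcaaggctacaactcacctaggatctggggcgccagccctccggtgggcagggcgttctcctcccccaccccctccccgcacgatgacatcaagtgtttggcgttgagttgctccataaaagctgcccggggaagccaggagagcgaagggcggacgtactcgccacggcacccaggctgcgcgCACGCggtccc
JAG1: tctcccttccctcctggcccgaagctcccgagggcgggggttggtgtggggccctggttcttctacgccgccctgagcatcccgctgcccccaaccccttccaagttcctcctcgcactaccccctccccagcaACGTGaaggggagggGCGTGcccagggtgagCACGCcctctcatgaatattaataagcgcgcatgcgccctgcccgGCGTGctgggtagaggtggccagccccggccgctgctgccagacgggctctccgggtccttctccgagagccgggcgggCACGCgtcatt
EPHA3: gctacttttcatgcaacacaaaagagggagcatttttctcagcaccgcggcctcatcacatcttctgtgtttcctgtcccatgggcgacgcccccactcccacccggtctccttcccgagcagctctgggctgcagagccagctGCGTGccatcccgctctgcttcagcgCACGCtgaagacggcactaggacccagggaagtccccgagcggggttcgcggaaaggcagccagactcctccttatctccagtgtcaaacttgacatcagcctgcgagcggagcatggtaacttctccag
MAGEC2: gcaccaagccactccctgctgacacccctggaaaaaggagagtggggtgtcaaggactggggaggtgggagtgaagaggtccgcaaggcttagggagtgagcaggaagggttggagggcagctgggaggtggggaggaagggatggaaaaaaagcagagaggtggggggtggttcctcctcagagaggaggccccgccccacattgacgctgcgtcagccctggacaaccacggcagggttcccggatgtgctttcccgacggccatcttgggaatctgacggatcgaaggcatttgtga

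The largest change was a loss. TCEA3, an elongation factor of RNA polymerase II, had log2 levels of 10.61, 10.59, 10.66, 10.62 and 10.67 on LNCaP/Empty and 4.86, 4.76, 5.07, 4.81 and 4.77 on HIF12, where no array detected it. The loss was at least 27.2-fold (fitted log2 difference -5.78, SE 0.07, adjusted p = 4.54e-35 from limma). Its paralogs TCEA1 and TCEA2 were detected on every vehicle array and did not pass (-0.28 to 0.02 by their detected probes). MAP1LC3A, an LC3 protein of autophagosome membranes, read 6.20, 5.83, 5.45, 6.41 and 6.23 in HIF12, where 3 of 5 arrays detected it, and 9.18, 9.04, 8.95, 8.98 and 9.22 in LNCaP/Empty (-3.06, SE 0.16, 8.32-fold lower). The related autophagy genes MAP1LC3B, GABARAP and GABARAPL1 differed by 0.06 to 0.18 without passing. Of 32 autophagy genes measured, LAMP2 was also called lower and CTSL higher, and 29 did not pass. With MAP1LC3A, 6.25% were lower and 3.12% higher, against 0.908% and 0.958% of all genes. SLC39A8, a zinc and manganese importer, fell by 2.92 (7.16, 7.33, 6.95, 7.04 and 7.43 against 10.15, 10.24, 10.08, 10.21 and 9.81), and PRXL2A, a redox-regulatory protein, was at least 5.30-fold lower.

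Among the other losses, the transcription factor SALL2 fell by 2.60 and the tetraspanin-like surface protein TM4SF1 by 2.44 on the log2 scale. For TM4SF1 the HIF12 arrays read 6.89, 6.81, 6.82, 6.87 and 6.42 and the LNCaP/Empty arrays 9.13, 9.35, 9.48, 9.12 and 8.93, with no overlap. BANK1, a scaffold known from B cell signaling, fell by 2.41 and PLA2G2A, a secreted phospholipase, by 1.87. EPHA3, an ephrin receptor of axon guidance, read 7.13, 7.17, 7.23, 7.53 and 6.78 in LNCaP/Empty and fell below detection throughout HIF12, a loss of at least 2.48-fold. VIM, the mesenchymal intermediate filament vimentin, was 3.32-fold lower, at 6.22, 5.78, 5.97, 6.41 and 6.48 against 8.06, 8.02, 7.78, 7.88 and 7.78 (-1.73, SE 0.15, adjusted p = 8.1e-10 from limma). The 20 largest losses, ranked among 140 genes with no overlap and detected on every LNCaP/Empty array, spanned fitted log2 differences of -5.78 to -1.60, and the next gene, RBP7, a retinol-binding protein, had -1.56.

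The largest gain was NTNG1, a membrane-anchored netrin that guides axons. All 5 HIF12 arrays detected it (8.30, 8.29, 8.18, 8.11 and 8.16) and none of LNCaP/Empty did (5.15, 4.63, 4.94, 4.89 and 4.86), a gain of at least 5.02-fold (fitted 3.31, SE 0.11, adjusted p = 1.38e-21 from limma). MAGEC2, a cancer-testis antigen normally restricted to the germ line, was 5.33-fold higher (8.84, 8.83, 9.00, 8.97 and 9.00 against 6.49, 6.83, 6.30, 6.73 and 6.21). The X-linked cancer-testis gene PAGE1 was 2.57-fold higher, and of 39 MAGE and other cancer-testis genes 3 were higher and 0 lower, with 36 not passed (11 of the 39 had an unadjusted p under 0.05). All-gene shares were 0.958% higher and 0.908% lower. The third, MAGEA1, was near 1.5-fold and did not pass without LNCaP/Empty replicate 1 or 5 or HIF12 replicate 4 (0.56 to 0.58). For the near-identical genes VCX, VCX3A and VCX3B, also of the testis, 1 probe each rose by 1.00 to 1.02, and these probes may share transcripts. Another detected probe of VCX3A (0.11) and the detected probes of VCX2 (-0.02 to 0.36) did not pass.

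**Figure D2:**
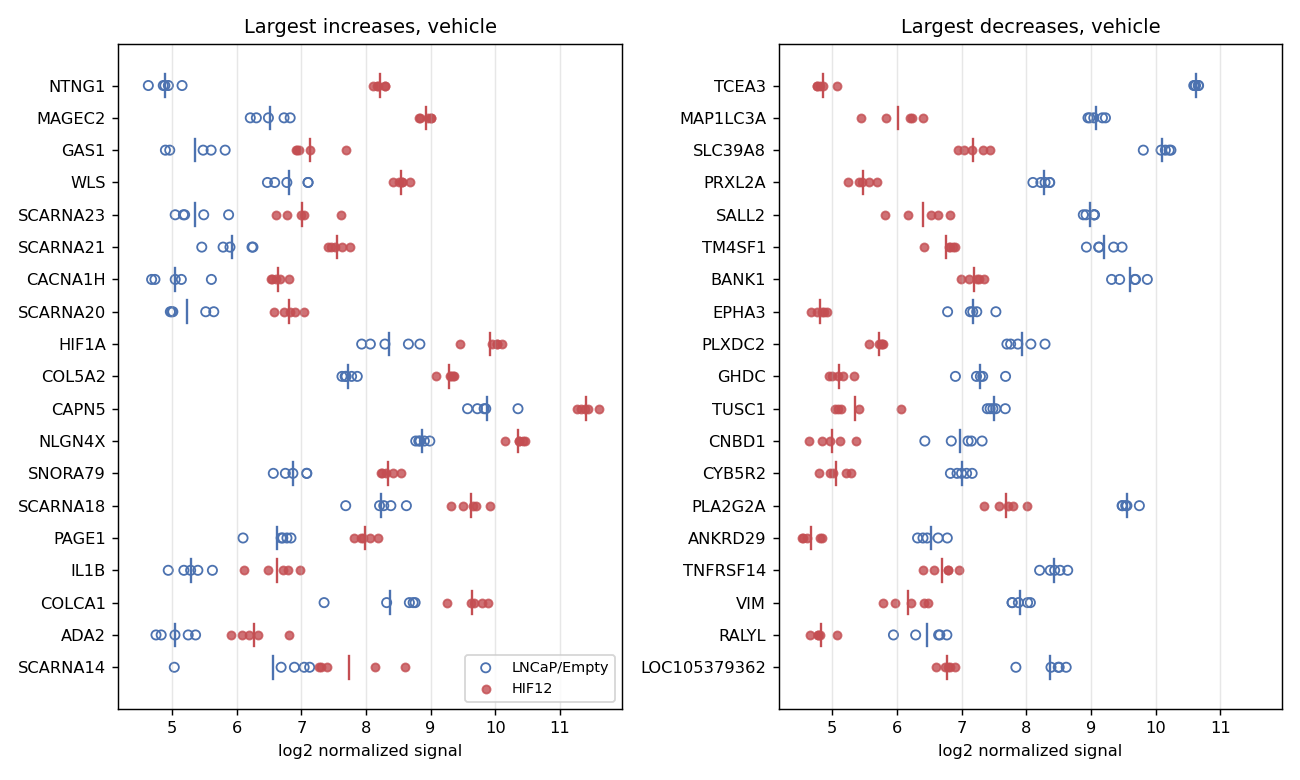
Normalized log2 level on each of the 5 HIF12 and 5 LNCaP/Empty vehicle arrays (points, with a bar at each mean) for the largest increases and decreases without Y-linked genes, ranked by the fitted difference. Genes shown were chosen for no overlap between the lines, so their separation follows from the choice. TCEA3 is near 10.6 in LNCaP/Empty and near 4.9 in HIF12, and NTNG1 near 8.2 in HIF12 and 4.9 in LNCaP/Empty.

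Further gains included the growth arrest protein GAS1 (at least 2.37-fold), the calcium channel subunit CACNA1H (at least 1.68-fold) and the cytokine IL1B (at least 1.66-fold), each of them detected throughout HIF12 and nowhere in LNCaP/Empty. IL1B read 6.48, 6.97, 6.80, 6.11 and 6.71 in HIF12 and 5.18, 4.94, 5.62, 5.40 and 5.29 in LNCaP/Empty. COL5A2, a fibrillar collagen chain, was 2.93-fold higher (9.29, 9.31, 9.37, 9.09 and 9.34 against 7.78, 7.63, 7.86, 7.68 and 7.69), the calpain protease CAPN5 2.90-fold and the synaptic adhesion protein NLGN4X 2.81-fold. The lowest HIF12 array of each was above the highest LNCaP/Empty array, which follows from the choice of genes without overlap. The 20 largest gains, ranked among 142 genes with no overlap and detected on every HIF12 array, spanned 3.31 to 1.19 on the fitted log2 scale. The next gene was SPRY1 at 1.17. Of 64 extracellular matrix and integrin genes 4 were higher (COL5A2, COL7A1, COL9A2 and the proteoglycan SPOCK1, which 2 of 5 HIF12 arrays detected) and 1 lower, the matrix glycoprotein THBS1, which was detected on 2 of 5 LNCaP/Empty arrays and on no HIF12 array. These were 6.25% and 1.56%, against 0.958% and 0.908% of all genes. COL7A1 was lost without LNCaP/Empty replicate 4 (0.58). SPOCK1 was not called without HIF12 replicate 4, and the list then held 3 higher and 1 lower.

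Small nuclear RNAs formed a group among the gains, which was noticed after the values were seen. Of 24 small Cajal body RNAs, which guide the chemical modification of spliceosomal RNAs, 10 were higher in HIF12 and 0 lower (13 higher and 0 lower at an unadjusted p under 0.05 in limma), with a median log2 difference of 0.33. SCARNA21 read 7.75, 7.41, 7.62, 7.46 and 7.51 in HIF12 and 6.24, 5.46, 5.79, 5.90 and 6.25 in LNCaP/Empty (1.62, SE 0.12, adjusted p = 9.17e-12 from limma), and SCARNA23 was 3.14-fold higher. SCARNA20 was undetected throughout LNCaP/Empty and gained at least 1.91-fold. SCARNA14 lost its call without LNCaP/Empty replicate 5 (0.81, adjusted p = 0.059) or HIF12 replicate 3 or 5 (0.97 and 1.09). Of 101 H/ACA nucleolar RNAs, which guide pseudouridylation, 5 were higher, led by SNORA79 (1.48), and of 176 C/D nucleolar RNAs, which guide methylation, 0 were higher and 2 lower (3 and 15 at an unadjusted p under 0.05). TERC, the RNA of telomerase that carries an H/ACA domain, was higher by 0.97. All-gene shares in this comparison were 0.958% higher and 0.908% lower.

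The level of these RNAs also differed between the stripped serum arrays and the Normal arrays. Over the 14 Cajal body RNA probes detected on at least 5 arrays, the mean log2 level was 7.45 ± 0.14 (SD, n = 5) in HIF12 and 6.51 ± 0.12 in LNCaP/Empty with vehicle, 7.54 ± 0.06 and 6.45 ± 0.08 with R1881, and 5.95 ± 0.04 and 5.74 ± 0.06 (n = 6) in Normal. The stripped serum arrays of both lines were thus above the Normal arrays, and the gap between the lines was wider there. A probe could enter this set through HIF12 arrays alone, so the choice favours RNAs that are high in HIF12. Over all 24 RNAs, without this filter, the median vehicle difference was 0.33. The Normal means, with 5.62 in HIF49, were near the lowest detected signal of the Normal arrays (5.70 to 6.13). Whether this detection limit narrowed the gap in Normal was not tested. For 3 of the RNAs the difference itself differed between vehicle and Normal, with 1.65 against 0.09 for SCARNA23, 1.62 against 0.02 for SCARNA21 and 1.58 against 0.11 for SCARNA20 (adjusted p of 0.000178, 1.77e-06 and 1.45e-05 from limma). The SCARNA20 values are fitted, since no LNCaP/Empty vehicle array detected it. In HIF49 limma called 0 of the 24 in either direction in Normal (0 and 1 at an unadjusted p under 0.05).

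**Figure D3:**
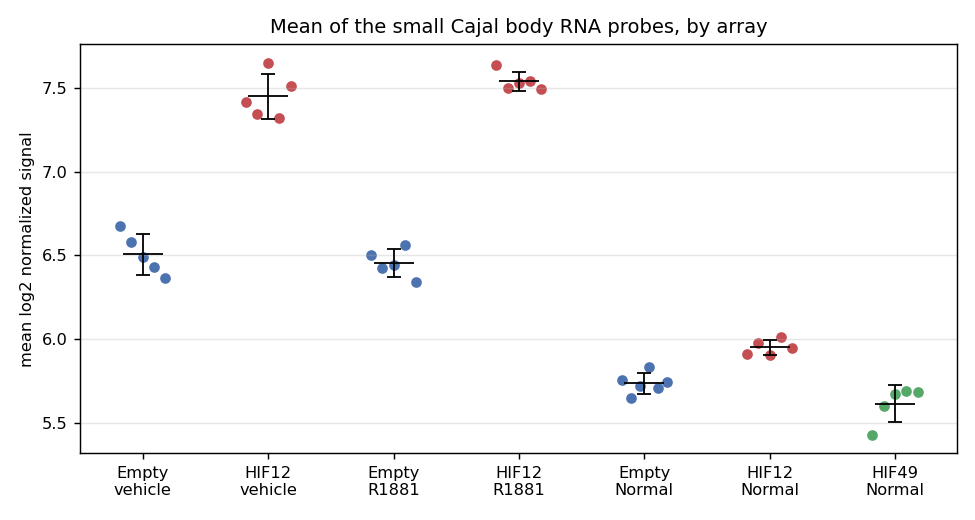
Mean normalized log2 level over the 14 Cajal body RNA probes detected on at least 5 arrays, on each array of the 7 groups (points), with the group mean and SD. HIF12 lies between 7.32 and 7.65 in vehicle and LNCaP/Empty between 6.36 and 6.67, and in Normal all groups are below 6.1. Normal levels are near the lowest detected signal of those arrays (5.70 to 6.13). Probes could enter through HIF12 arrays alone, which favours RNAs high in HIF12.

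Androgen response genes went both ways. Of 93 measured, 6 were higher (6.45%) and 5 lower (5.38%) in HIF12, against 0.958% and 0.908% of all genes, and 82 did not pass. At an unadjusted p under 0.05 in limma were 33 of the 93, and 3100 of the 20045 genes. These counts do not separate genes that R1881 raises from genes that it lowers. KLK3, which encodes prostate-specific antigen, was 2.17-fold lower (6.26, 7.00, 6.80, 6.73 and 6.40 in HIF12 against 7.93, 8.16, 7.56, 7.93 and 7.20 in LNCaP/Empty, -1.12, SE 0.14, adjusted p = 2.26e-06 from limma). Its neighbour KLK2, another secreted kallikrein, was higher by 0.91 (6.70, 6.68, 6.41, 7.67 and 6.19 against 5.67, 6.10, 5.49, 6.57 and 5.26), and the lines overlapped. Without HIF12 replicate 4, the array that stood apart, KLK2 differed by 0.67 with an adjusted p of 0.0545. TMPRSS2, a transmembrane protease, read 12.54 on that array and 11.04 to 11.25 on the other HIF12 arrays, and did not pass (0.47, adjusted p = 0.239). The cold-sensing channel TRPM8 was 1.93-fold higher. TARP, a T cell receptor transcript expressed in prostate cells, was lost without LNCaP/Empty replicate 1 or 5 or HIF12 replicate 2, 3 or 4 (0.73 to 0.89). Without HIF12 replicate 4 the list held 3 higher (NDRG1, PTK2B and TRPM8) and the same 5 lower. KLK4 and the androgen-regulated transporter gene SLC45A3 differed by 0.01 and -0.12 without passing, and so did the cochaperone gene FKBP5 by -0.18.

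Of the 5 lower genes of that list, 3 were UGT2B enzymes, which inactivate androgens. UGT2B15, UGT2B17 and UGT2B28, which attach glucuronic acid to androgens and other steroids, and UGT2B10 and UGT2B11, which are not in that list, were lower by 0.88 to 1.45 on the log2 scale and were the 5 lower genes among 51 of steroid and retinoid metabolism, with 0 higher (16 of the 51 had an unadjusted p under 0.05). Among all genes 0.908% were lower and 0.958% higher. UGT2B17 read 12.37, 12.12, 12.32, 12.52 and 12.60 in HIF12 and 13.43, 13.49, 13.59, 13.64 and 13.66 in LNCaP/Empty by the probe ILMN_1752214. Their transcripts are nearly identical, so that probes may cross-hybridise and the genes are not independent. In LNCaP/Empty the mean of UGT2B15 was 12.12 with vehicle and 11.67 with R1881 by the probe ILMN_2048414, and 8.08 and 7.82 by ILMN_1739624. A lower UGT2B level in HIF12 is therefore not by itself a weaker androgen response, and this was not tested. The liver-type enzymes UGT2B4 and UGT2B7 were not detected on the vehicle arrays. BMPR1B, a BMP receptor in the androgen list, was at least 1.49-fold lower.

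Among feedback inhibitors of Ras-MAPK signaling, 4 passed as higher. Of 26 such genes, 4 were higher and 0 lower (6 with an unadjusted p under 0.05), with 22 not passed and a median log2 difference of 0.0017, and the same 4 passed without HIF12 replicate 4. The higher share was 15.4%, against 0.958% of all genes, and 0.908% of all genes were lower. SPRY1, a Sprouty inhibitor of receptor kinases, read 9.95, 10.07, 10.08, 10.14 and 10.17 in HIF12 and 8.88, 8.99, 8.94, 8.91 and 8.82 in LNCaP/Empty (2.25-fold, adjusted p = 5.54e-10 from limma). SPRED1, a Sprouty-related inhibitor of Raf activation, was 1.66-fold higher, and PHLDA1, an apoptosis-related protein induced by growth factors, 1.98-fold. SPRY4 passed on a probe that only 1 HIF12 array and no LNCaP/Empty array detected, which leaves its size unmeasured. The related genes SPRED2, SPRY2 and DUSP6 did not pass, SPRY2 and DUSP6 below the detection limit.

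Single members passed in the signaling and adhesion lists. JAG1, a Notch ligand, was 2.12-fold higher (8.27, 8.05, 8.12, 8.55 and 7.79 against 7.08, 7.02, 7.01, 7.14 and 7.12, adjusted p = 1.81e-06 from limma) and was the only 1 of 29 Notch genes called. TWIST1, which drives epithelial-mesenchymal transition, was 1.78-fold higher (8.60, 8.38, 8.36, 9.06 and 8.41 against 7.49, 7.78, 7.59, 7.91 and 7.88), and of 30 epithelial-mesenchymal genes TWIST1 was higher and VIM and THBS1 lower. The lysosomal protease CTSL was 2.16-fold higher, at 12.79 to 13.04 against 11.73 to 11.89. PPFIBP2, a liprin of the synaptic scaffold, was 1.65-fold higher. Cell cycle (63 genes), oxidative phosphorylation (77), cholesterol and fatty acid synthesis (35) and immediate early genes (31) had 0 calls in either direction in limma, with 8, 5, 11 and 3 genes at an unadjusted p under 0.05. Without HIF12 replicate 4, 1 gene of oxidative phosphorylation, ATP5ME, was called lower. Beside each list of this paragraph stand the all-gene shares of 0.958% higher and 0.908% lower.

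The differences of HIF12 were then set beside those in the other conditions. With R1881, HIF12 had 314 genes (1.57%) above and 232 (1.16%) below LNCaP/Empty, and 143 of the 192 vehicle genes (74.5%, or 45.5% of the 314) and 118 of the 182 (64.8%, or 50.9%) were called in the same direction. In Normal, 200 (0.998%) were higher and 207 (1.03%) lower, which included 95 (49.5%, or 47.5% of the 200) and 101 (55.5%, or 48.8%) of the vehicle genes. In all 3 conditions 85 genes were higher and 80 lower, and 39 and 43 were called in vehicle alone, which does not show that their differences depended on vehicle. In HIF49, 173 genes (0.863%) were higher and 173 (0.863%) lower than LNCaP/Empty, among them 21 of the 192 (10.9%, or 12.1% of the 173) and 41 of the 182 (22.5%, or 23.7%), while 11 and 9 were called the opposite way. Vehicle, R1881 and Normal used different arrays of LNCaP/Empty, and HIF49 and HIF12 in Normal shared theirs.

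Of the 20 largest gains in vehicle, all 20 were called higher with R1881, 15 in Normal and 4 in HIF49 (NTNG1, CACNA1H, COL5A2 and NLGN4X), and 2 were lower in HIF49. MAGEC2 was 1 of the latter (-0.95 in HIF49). Of the 20 largest losses, all 20 were called lower with R1881, 19 in Normal and 10 in HIF49, among them MAP1LC3A (-3.38), BANK1 (-1.25) and EPHA3 (-1.37). TCEA3, PRXL2A, SALL2 and SLC39A8 did not pass in HIF49 (0.33, 0.19, -0.15 and 0.02), and TM4SF1 was higher there (0.72). The 2 HIF1a clones differed from each other in Normal at 12 of the 20 gains and 14 of the 20 losses in the direct test of limma. Among all 20045 genes, 381 were higher and 265 lower in HIF49 than in HIF12 by that test. The gains and losses were chosen for large differences of HIF12, which favours a departure of HIF49 from it.

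**Figure D4:**
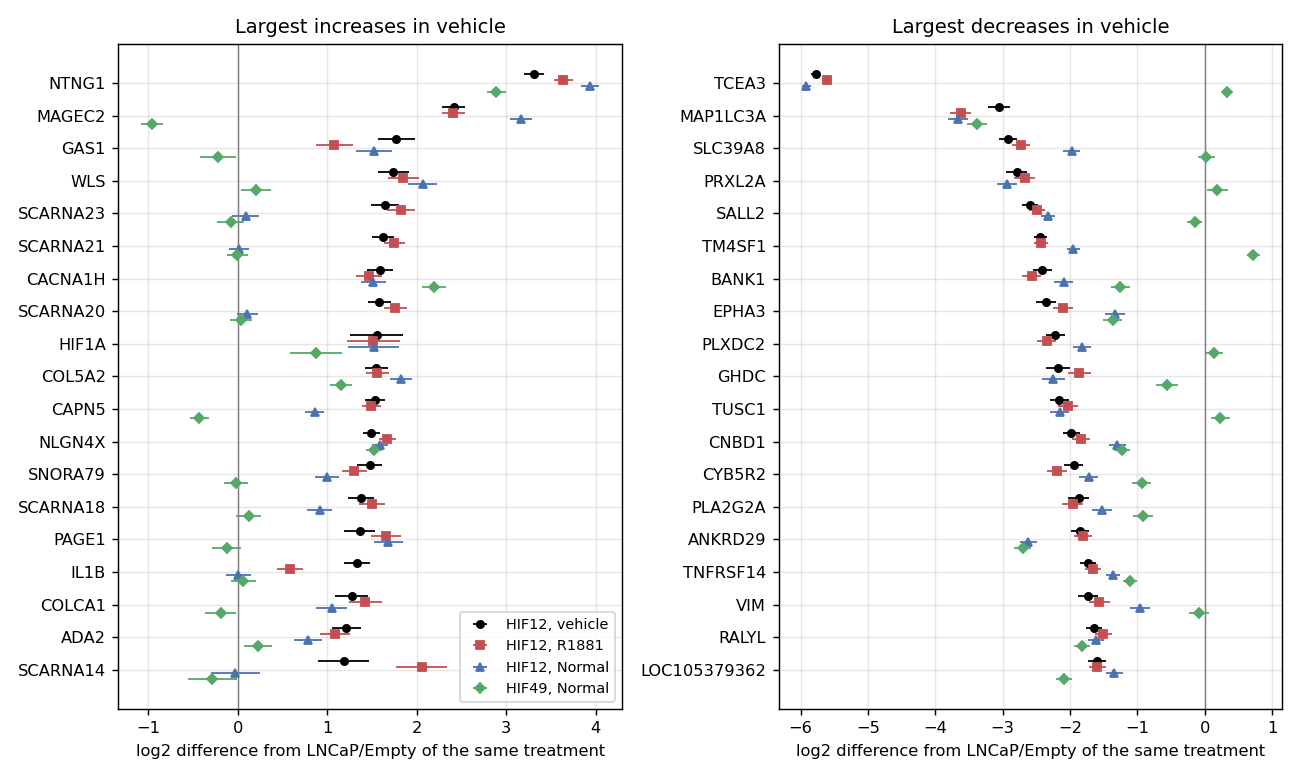
Fitted log2 difference from LNCaP/Empty with its SE for the largest increases and decreases, for HIF12 in vehicle, with R1881 and in Normal and for HIF49 in Normal. The 3 HIF12 differences lie mostly on the same side of 0, whereas TCEA3 is at -5.78, -5.61 and -5.92 in HIF12 and 0.33 in HIF49.

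Where the difference itself was tested between conditions, 2 genes (0.00998%) differed between vehicle and R1881 in either direction, and 46 (0.229%) between vehicle and Normal, 28 with a higher and 18 with a lower vehicle difference. The former were TUBA3C, an alpha tubulin gene, and SLC2A3, a glucose transporter. Neither was detected on any vehicle array, so no vehicle fold is given, and with R1881 they were lower in HIF12 by 1.04 (5.94 ± 0.14 against 6.98 ± 0.20, SD, n = 5 per line) and 0.94 (5.95 ± 0.19 against 6.89 ± 0.25). Without LNCaP/Empty vehicle replicate 1, HIF12 replicate 2 or HIF12 replicate 4 the count was 1. Against Normal, IL1B differed by 1.33 in vehicle and 0.01 in Normal (adjusted p of the difference 0.000482 in limma), and S100P, a calcium-binding protein, by 1.03 in vehicle against -0.43. The vehicle value of IL1B is fitted, since no LNCaP/Empty vehicle array detected it. The peptide hormone gene GCG was lower by 1.20 in vehicle and 0.00 in Normal, the cancer-testis gene CT45A3 differed by 1.10 against 0.03, and the metallothionein MT1G by 0.60 against -0.29 (MT1G in vehicle was lost without LNCaP/Empty replicate 3 or HIF12 replicate 1 or 2, 0.56 to 0.57).

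Position in the genome was examined last, after the values were seen. With the detected genes in RefSeq order, medians of the vehicle difference were taken over windows of 50 genes in steps of 25. Of 364 windows, the 20 with the lowest medians were all on chromosome 6 (12) or chromosome 1 (8). On chromosome 6, 325 genes from DUSP22 to BCKDHB had a median of -0.26 (1.20-fold lower), 85.5% were below 0, and 29 were called lower and 1 higher. The level of this stretch relative to other genes was -0.20 to -0.16 on the 5 HIF12 arrays and 0.07 to 0.10 on the 5 LNCaP/Empty arrays, so that every array was on its line's side, while the other 188 genes of the chromosome had a median of 0.03. On chromosome 1, 425 genes from LIX1L to ZNF670 had a median of -0.17, with 80.5% below 0 and 14 called lower and 1 higher, relative levels of 0.02 to 0.04 against 0.18 to 0.21, and 0.03 for the other 582 genes. In 5 of the 16 windows of this stretch the median was not below -0.15. Outside both stretches 9240 genes had a median of 0.03, 42.7% were below 0, and 114 were called lower and 160 higher.

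Both stretches were chosen for their low vehicle medians, so the vehicle values are a description. In arrays not used for that choice, the chromosome 6 stretch had medians of -0.26 with R1881 and -0.27 in Normal, and the chromosome 1 stretch -0.18 and -0.19. In HIF49 they were 0.06 and 0.23, and 16 of the 20 highest HIF49 windows lay on chromosome 1. The called genes of the chromosome 6 stretch included HLA-B and MICA, which present antigen or stress signals to immune cells, the glutathione transferases GSTA1 and GSTA2, the transcription factor TFAP2A and RN7SK, the RNA that holds the elongation factor P-TEFb inactive. HLA-B read 8.18, 8.33, 8.18, 8.04 and 7.65 in HIF12 and 8.74, 9.06, 8.79, 8.73 and 8.71 in LNCaP/Empty (1.66-fold lower, adjusted p = 7.33e-05 from limma). The chromosome 1 stretch held the lamin receptor LBR, the exonuclease EXO1 and the flagellin receptor TLR5 among its lower genes.

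**Figure D5:**
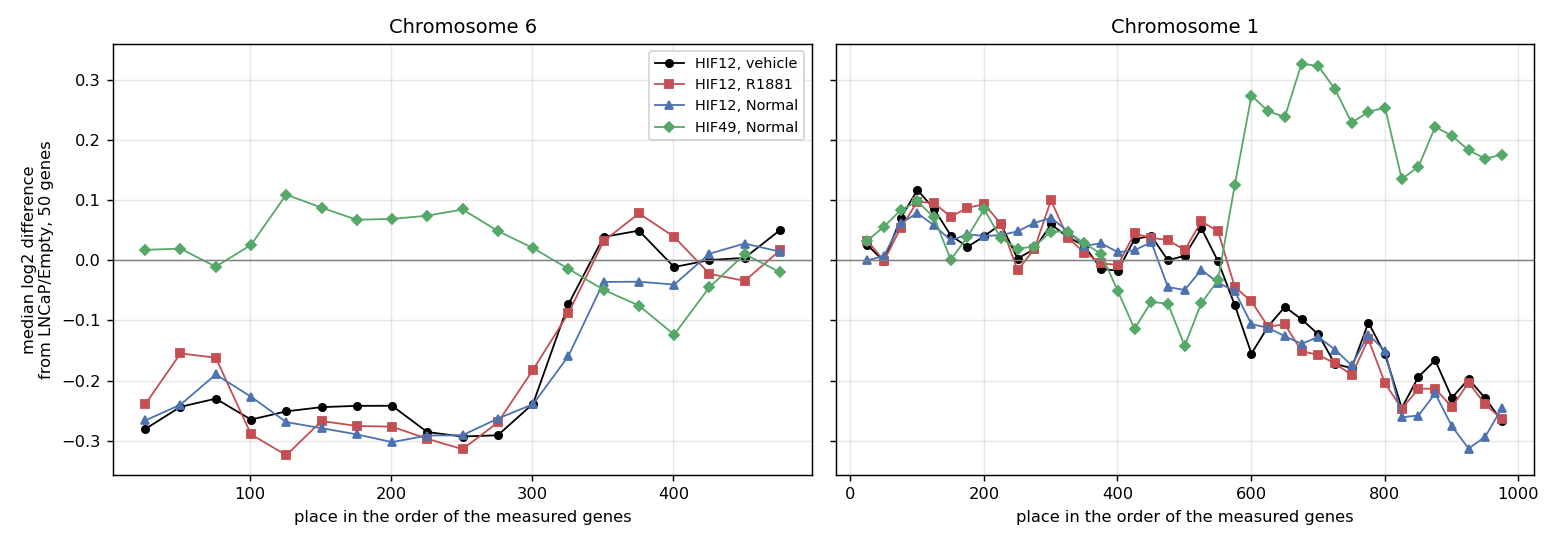
Median log2 difference from LNCaP/Empty of the same treatment, for HIF12 in vehicle, with R1881 and in Normal and for HIF49 in Normal, in windows of 50 detected genes along chromosomes 6 and 1, by place in the order of the measured genes. The 3 HIF12 lines run below 0 over the first part of chromosome 6 (vehicle median -0.26 over the stretch) and the last part of chromosome 1, and the HIF49 line is above 0 on the latter.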

How the data were processed

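Each array gave a scanner intensity and a detection p-value per probe, which the authors deposited without background correction or normalization. A second deposited table held the same intensities after quantile normalization, on a linear scale. The study's methods mention background correction, normalization and a log2 transformation before limma without saying how they were done, and give an earlier Illumina array type than that of the probe table, from which the gene names were taken.

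The 36 columns were matched to the labels by the running number in each title. Of 48107 probes, 2 lacked values and 48105 were tested (30112 with 1 gene name, 20045 genes, 8 with several names and 17985 with none, which were named for no gene). Background was removed by limma's nec (limma 3.58.1 in R 4.3.3) from the detection p-values (offset 16), quantile normalized and log2 transformed, with no filter on dim probes. lmFit and eBayes were run on all 36 arrays with 1 mean per group, which share 1 estimate of the spread, and p-values were adjusted by Benjamini-Hochberg over 48105 probes. A call needed an adjusted p under 0.05 and a change of 1.5-fold or more on 1 probe. Where no array of a group detected a probe (detection p under 0.01), the fold is a lower bound, the mean of the brighter group over the lowest detected signal, or the dim probe's own where higher. The precision is limited by the number of arrays.

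Named genes were the 20 largest differences in each direction among genes with no overlap and detected on every array of the higher line, up to 3 per direction of 36 gene lists, and genes of the HIF and androgen pathways. The members and lists were chosen with earlier results of these data known. Alternatives were other background corrections and normalizations, the deposited table, a detection filter, only the vehicle arrays, running number blocks, array weights, a replicate block, the brightest probe per gene and leaving out each vehicle array. 2 vehicle arrays were also left out together, which was chosen after seeing the data.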

Additional observations from a re-analysis of the deposited data

Results flagged for a closer look

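In 214 groups of 5 vehicle arrays (each named probe in each line, with 2 Y-linked probes of the 109 left out here and below), 16 had 1 array far from the other 4 by Dixon's criterion, which chance gives in about 1 group in 20. LNCaP/Empty replicate 5 was that array in 7 of them and HIF12 replicate 4 in 5. LNCaP/Empty replicate 5 was low for PAGE1 (6.10, others 6.69 to 6.84), SCARNA14 (5.03, others 6.69 to 7.13), LDHB (11.87, others 12.42 to 12.60), TRPM8 (5.26, others 5.97 to 6.19), SEMA3C, a secreted semaphorin (7.76, others 8.33 to 8.50), and the HIF1A probe ILMN_2379788 (8.06, others 8.65 to 8.87), and high for PLA2G2A (9.75, others 9.48 to 9.56). Without it SCARNA14, LDHB and SEMA3C no longer passed (log2 differences of 0.81, 0.50 and 0.57), and the others kept their calls or, for that HIF1A probe, stayed uncalled (0.01). HIF12 replicate 4 was high for TMPRSS2 (12.54, others 11.04 to 11.25) and SPRED1 (9.42, others 8.84 to 8.97), both androgen-induced, and low for COL5A2 (9.09, others 9.29 to 9.37), the desmosomal cadherin DSC2 (11.38, others 11.52 to 11.57) and the interferon regulatory factor IRF1 (6.73, others 7.14 to 7.29). Without it the log2 differences were 0.19, 0.62, 1.60, 0.65 and 0.80, with TMPRSS2 uncalled as before. HIF12 replicate 5 was high for GAS1 (7.69, others 6.92 to 7.14) and low for TM4SF1 (6.42, others 6.81 to 6.89), HIF12 replicate 1 was low for the HIF1A probe ILMN_1763260 (9.45, others 9.95 to 10.11), and LNCaP/Empty replicate 2 was high for HLA-B (9.06, others 8.71 to 8.79), and these 4 calls held without the array.

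For 9 of 107 named probes the difference between the lines itself differed between vehicle and Normal in limma. Among all genes it did so for 46 of 20045 (0.229%). Many named probes were chosen for a large vehicle difference, which this test contains, so the higher share among them is no separate result. The vehicle difference exceeded the Normal one for SCARNA23 by 1.56 (adjusted p = 0.000178), SCARNA21 by 1.61 (1.77e-06), SCARNA20 by 1.47 (1.45e-05), CAPN5 by 0.67 (0.0462), IL1B by 1.32 (0.000482), IGFBP3 by 1.68 (0.02) and MT1G by 0.88 (0.00124). For SLC39A8 and EPHA3 it was further below LNCaP/Empty, with a difference of -0.94 (0.0121) and -1.03 (0.02). In vehicle EPHA3 was undetected throughout HIF12, and IL1B and SCARNA20 throughout LNCaP/Empty, so the sizes for these genes are fitted values below the detection limit. The samples in vehicle had been in stripped serum and then ethanol, and the labels do not say how Normal differed from that.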

How the results depend on the processing

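With no background correction, or in the deposited normalized table, 59 genes were higher and 72 lower in HIF12 in vehicle, of which 59 and 69 were among the 192 and 182, and 10 differed between vehicle and R1881. With normexp and an offset of 50 these were 71, 86 and 4. By construction both settings shrink the differences of dim probes. Median scaling gave 221 higher and 139 lower (61.4% of the calls higher, against 51.3%), and with it or cyclic loess 1 gene differed between vehicle and R1881. The median of all probes stayed within 0.02 of 0 under every scaling. With array weights 72 genes differed between vehicle and Normal, against 46. Leaving out 1 array gave 172 to 199 higher, 161 to 197 lower, 1 to 2 between vehicle and R1881 and 37 to 55 between vehicle and Normal, and leaving out HIF12 replicate 4 and LNCaP/Empty replicate 5 together gave 180, 193, 1 and 49. The third HIF1A probe (ILMN_2379788) turned to -0.11 with running number blocks of 6, and ARNT ranged from -0.017 without LNCaP/Empty replicate 5 to 0.25 without LNCaP/Empty replicate 1. The cause was not tested, and neither passed in any of these. The replicate block gave 191 higher, 182 lower, 3 and 43. Same-numbered arrays correlated at -0.11 to 0.16 in their deviations and 2 of 5 numbers correlated best with their own. With 5 numbers this does not settle whether the arrays were paired, and the labels do not say. Of 98 called probes among the 109 named, 59 kept call and direction under every alternative, 39 lost the call under at least 1 and 0 reversed. The chromosome 6 and 1 medians were -0.20 and -0.13 without background correction, -0.21 and -0.14 with normexp and -0.21 and -0.13 with median scaling, and the 14 Cajal body RNA probes detected on at least 5 arrays had a median of 1.07, and 0.67 and 0.72 under the first 2. The 14 Cajal body RNA probes could be admitted by HIF12 arrays alone, which favours a positive median. Dim probes carry the least certain sizes, since 47 of the higher and 43 of the lower genes were undetected throughout the other line.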

Other observations

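Some genes outside the comparisons above also stood apart. The protocadherin PCDH11X was lower in HIF12 in vehicle, at 6.30 to 6.90 against 7.69 to 8.60 by the probe ILMN_2329625 (-1.39, adjusted p = 0.000236 from limma). It shares near-identical sequence with PCDH11Y, so that their probes cannot be assigned. The apoptosis genes BMF and PMAIP1 were the 2 called higher among 41 genes of the BCL2 family and death receptors (4.88%, against 0.958% of all genes), and each lost its call when any 1 of 3 arrays was left out (BMF without LNCaP/Empty replicate 2 or 5 or HIF12 replicate 4, 0.56 to 0.58, and PMAIP1 without LNCaP/Empty replicate 3 or 5 or HIF12 replicate 4, 0.56 to 0.64). FGFR3, a fibroblast growth factor receptor, passed at 0.96, and not without LNCaP/Empty replicate 1 or 2 or HIF12 replicate 5 (0.84 to 0.88), while its log2 difference was 1.33 with R1881 and -0.31 in Normal.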
